A study of Drosophila melanogaster with 32 samples.

Results

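The 10 genes of the cyclic AMP (cAMP) and long-term memory pathway studied here, rut, dnc, amn, Pka-C1, Pka-R1, Pka-R2, CrebA, CrebB, orb2 and Nf1, were followed through RNA-seq of adult Drosophila melanogaster heads. They were chosen by name from 17559 genes in the count tables, and all 10 were found there by their FlyBase identifiers. The study concerns Hsp70, the heat-induced chaperone, and the forming of memory, and it sequenced polyadenylated RNA from heads of male flies in 32 libraries of 4 strains. For hsp70-1c, and likewise for hsp70-4c, there were 4 libraries of naive flies, 3 collected 5 h after training and 3 collected 24 h after it. For hsp70-, and likewise for w+hsp70-, there were 3 naive and 3 at 5 h. In hsp70-4c the naive libraries carry titles of a 5 h control, while their time point label says naive, which is used here. All libraries came from pools of roughly 100 flies described as biological replicates. The labels call 5 h short-term and 24 h long-term, and they give neither the fly age nor the training procedure nor the alleles behind the strain names. Summed over the 6 inducible Hsp70 genes, hsp70-4c had 22 to 54 counts per library, hsp70-1c had 0 to 4, and hsp70- and w+hsp70- each had 0 or 1. The copies are nearly identical, so their separate levels are uncertain.

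In this pathway a signal at the neuronal membrane activates adenylyl cyclase, which makes cAMP, and cAMP releases the catalytic subunits of protein kinase A from their regulatory subunits. The freed kinase phosphorylates targets that include transcription factors of the CREB family, and long-lasting memory in flies needs new transcription and local translation. The mushroom body of the fly brain is the best known site of this chemistry in olfactory learning, and rut and dnc were among the first learning mutants isolated in flies. The genes are described by their roles: the cyclase rut, the phosphodiesterase dnc, the neuropeptide gene amn, the kinase subunits, the CREB proteins, the translation regulator orb2, and Nf1, a regulator of Ras that also acts on cAMP signalling.

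Reads assigned to genes were 4542145 to 10344890 per library, and 58.15 to 68.66% of the counted reads fell outside annotated genes. Genes of head cell types were abundant. The rhodopsin gene ninaE was at 16368 to 36975 CPM (counts per 1000000 assigned reads, scaled with TMM factors over all 32 libraries), the synaptic vesicle gene nSyb at 393 to 617 and the glial gene repo at 14.6 to 28.1. The pan-neuronal gene elav was an exception, with a median of 0.699 CPM and 2 libraries at 0. Summed digestive enzyme markers of the gut ranged from 2992 to 16739 CPM and summed testis markers from 4.85 to 24.1. In whole heads, fewer cells of a type and less RNA per cell cannot be told apart.

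Per kilobase of merged exons, the scale on which different genes can be compared, the kinase subunits were the most abundant of the 10. Pka-R1 had a median of 24.4 CPM per kb over the 32 libraries, Pka-R2 17.8 and Pka-C1 15.3. The translation regulator orb2 followed at 6.0, CrebB at 4.38, Nf1 at 3.44, CrebA at 2.04 and dnc at 1.93. The cyclase rut stood far below them at 0.401, and amn at 0.0679. The ranges over libraries of Pka-R2 (10.4 to 23.0) and Pka-C1 (7.34 to 19.5) overlapped widely, as did those of CrebA (1.3 to 2.76) and dnc (0.618 to 2.39). Those of rut (0.197 to 0.844) and amn (0 to 0.198) only touched.

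The 10 genes lie on 5 chromosome arms. In dm6 coordinates rut is at chrX:14787478-14826073 on the minus strand, dnc at chrX:3176440-3343767 on the plus strand, amn at chrX:19886108-19890060 on the minus strand and CrebB at chrX:18366357-18377864 on the plus strand. Pka-C1 is at chr2L:9682315-9699297 on the minus strand and Pka-R2 at chr2R:9993890-10026042 on the minus strand. Pka-R1 is at chr3L:20816118-20836048 on the plus strand, CrebA at chr3L:15535395-15553214 on the plus strand, orb2 at chr3L:8937100-8954463 on the minus strand and Nf1 at chr3R:25983013-25995737 on the plus strand. Exons of 4 of them share bases with another gene, and the strand setting of the count step is not given in the sources used here, so reads in shared bases are uncertain. The rut exons share 420 bases with lncRNA:CR45522 on the opposite strand, which had at most 1 count in any library. CrebB shares 344 bases with por on the opposite strand, and amn shares 140 with Hers on the opposite strand. The orb2 exons share 1319 bases with CG43783 on the same strand.

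A test of any difference among the 10 groups of strain and time (edgeR quasi-likelihood test, p-values adjusted over all genes tested, called under 0.05) picked out 3 of the 9 genes with enough counts to test. They were rut (adjusted p = 0.000125), CrebB (0.00882) and orb2 (0.02). Over all 10843 genes tested, 3754 were called, or 34.6%, so 3 of 9 was close to the share among all genes. The adjusted p was 0.133 for Pka-R1, 0.447 for CrebA, 0.536 for dnc, 0.554 for Nf1, 0.771 for Pka-R2 and 0.846 for Pka-C1. Without hsp70- 5 h replicate 3 Pka-R1 was called (adjusted p = 0.0232). The orb2 call was lost without hsp70-4c 5 h replicate 2 or 3 (0.0502 and 0.0642) or hsp70- 5 h replicate 2 or 3 (0.0627 and 0.0699). The gene amn, with 0 to 6 counts per library, did not pass the count filter.

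The cyclase rut, whose product makes cAMP in response to calcium and G proteins, was the member that differed most between strains, and it did so in naive flies. In naive hsp70-1c its 4 libraries had 2.01, 2.36, 2.36 and 1.89 CPM, and in naive hsp70-4c they had 3.99, 2.5, 2.06 and 3.42 CPM. In naive hsp70- the 3 libraries had 5.26, 8.11 and 6.32 CPM, and in naive w+hsp70- they had 5.72, 5.08 and 5.55 CPM. All 6 naive libraries of hsp70- and w+hsp70- lay above all 8 naive libraries of hsp70-1c and hsp70-4c. These values rest on few reads, 10 to 43 counts of rut per library over the whole set.

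Against hsp70-1c, rut was higher by a log2 difference of 1.58 in hsp70- (SE 0.24, adjusted p = 0.00056 by edgeR, 2.99-fold) and by 1.31 in w+hsp70- (SE 0.24, adjusted p = 0.00368). Against hsp70-4c it was higher by 1.14 in hsp70- (SE 0.23, adjusted p = 0.00191) and by 0.88 in w+hsp70- (SE 0.23, adjusted p = 0.0167). The first 3 of these calls held when any of the 14 naive libraries was left out. The fourth held in 10 of 14 such fits, and its adjusted p was 0.0569 and 0.0589 without hsp70-4c naive replicate 2 or 3 and 0.0671 and 0.0614 without w+hsp70- naive replicate 1 or 3. Between hsp70-4c and hsp70-1c the log2 difference was 0.43 (95% interval -0.02 to 0.89, adjusted p = 0.324), and between w+hsp70- and hsp70- it was -0.26 (-0.72 to 0.19, adjusted p = 0.916). The 4 called comparisons share libraries with each other, since each strain enters 2 of them.

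**Figure D1:**
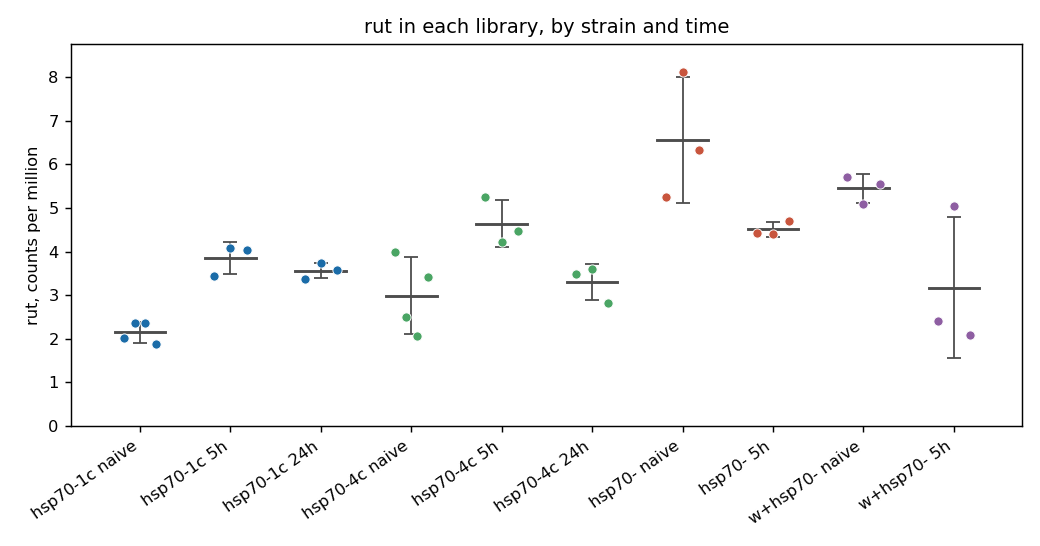
Level of rut in CPM (vertical axis) in each of the 32 libraries (points, coloured by strain) by strain and time (horizontal axis), with the mean (bar) and SD (whiskers) of each group. The naive hsp70- and w+hsp70- libraries sit between 5.08 and 8.11, all above the naive libraries of hsp70-1c and hsp70-4c, which sit between 1.89 and 3.99.

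The order of the strains was not the same 5 h after training. At 5 h rut was at 3.44, 4.08 and 4.04 CPM in hsp70-1c, at 5.24, 4.21 and 4.47 in hsp70-4c, at 4.42, 4.4 and 4.7 in hsp70-, and at 2.4, 5.04 and 2.09 in w+hsp70-. Replicates 1 and 3 of w+hsp70- lay below all 5 h libraries of the other 3 strains, while its replicate 2 lay among the highest. No pair of strains was called for rut at 5 h, with log2 differences from -0.57 (w+hsp70- minus hsp70-4c, 95% interval -1.13 to -0.01) to 0.27 (hsp70-4c minus hsp70-1c, -0.26 to 0.79). The interval of -1.13 to -0.01 is approximate, and the edgeR test did not call that pair (adjusted p = 0.259). The hsp70- minus hsp70-1c difference, 1.58 in naive flies, was 0.22 at 5 h (-0.31 to 0.75). Without w+hsp70- 5 h replicate 2 the difference of w+hsp70- from hsp70-4c at 5 h was -1.04 (adjusted p = 0.0251).

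Within strains, rut rose in hsp70-1c at 5 h. The 4 naive libraries averaged 2.15 ± 0.24 CPM (SD), the 3 at 5 h averaged 3.85 ± 0.358, and they did not overlap. The log2 change was 0.83 (SE 0.20, adjusted p = 0.0409 by edgeR). The call was lost when any 1 of the 10 hsp70-1c libraries was left out (adjusted p 0.0568 to 0.158), with the replicate number as a block (0.78, adjusted p = 0.112), by the DESeq2 Wald test (adjusted p = 0.125) and without the count filter (adjusted p = 0.0689). Markers of other cell types moved in the same libraries, and their part in the result was not tested. The fat body sum was 4078 to 5438 CPM in naive hsp70-1c and 2104 to 2730 at 5 h, without overlap. The muscle sum was 1247 to 1611 and then 1013 to 1217, and the photoreceptor sum was 30699 to 33284 and then 38507 to 39606, also without overlap. Called lower were 3 of 6 fat body markers tested (AkhR, apolpp and Lsp2) and 2 of 7 muscle markers (Act79B and Mlc1), and called higher were 2 of 9 photoreceptor markers (Rh6 and ninaE). Of all genes 3.51% were called there. Lsp2 alone was a large part of the fat body sum, at a mean of 2734 CPM in naive hsp70-1c and 853 at 5 h. The change of rut in hsp70-4c was 0.65 (SE 0.23, adjusted p = 0.116). In the other pair of strains the values ran the other way, at -0.53 in hsp70- (SE 0.23, adjusted p = 0.782) and -0.81 in w+hsp70- (SE 0.30, adjusted p = 0.271, or -1.28 with adjusted p = 0.0419 without w+hsp70- 5 h replicate 2). At 24 h rut was at 3.38, 3.73 and 3.57 CPM in hsp70-1c and 3.48, 3.6 and 2.83 in hsp70-4c, which overlapped (log2 difference -0.11, SE 0.22, adjusted p = 0.877). The change from naive at 24 h was 0.71 in hsp70-1c (SE 0.21, adjusted p = 0.33) and 0.15 in hsp70-4c (SE 0.24, adjusted p = 0.829).

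Whether the 5 h change of rut differed between strains was tested directly with interaction contrasts. The change in hsp70- minus that in hsp70-1c was -1.35 (SE 0.29, unadjusted p = 0.0003, adjusted p = 0.268 by edgeR), and minus that in hsp70-4c it was -1.16 (SE 0.34, adjusted p = 0.287). The change in w+hsp70- minus that in hsp70-1c was -1.63 (SE 0.38, adjusted p = 0.305), and minus that in hsp70-4c it was -1.45 (SE 0.40, adjusted p = 0.148). These 4 contrasts were chosen after seeing that rut differed between naive strains, they share libraries, and none passed the threshold. Without w+hsp70- 5 h replicate 2 the last pair had adjusted p-values of 0.0369 and 0.0442. The contrasts planned with the design, hsp70-4c against hsp70-1c (-0.17, SE 0.32) and w+hsp70- against hsp70- (-0.26, SE 0.40), had 95% intervals that held 0.

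Ag5r, 926 bases away on its left, and CG14408, 793 bases away on its right, were called in none of the 6 naive strain pairs. For hsp70- minus hsp70-1c in naive flies CG14408 had a log2 difference of 0.17 (SE 0.09, adjusted p = 0.28) and Ag5r one of 0.45 (SE 0.35, adjusted p = 0.527). By Pearson correlation of log2 CPM (prior count 2) over the 32 libraries, a description of points that share strain and depth, the genes most like rut were Chro (0.77), mxt (0.74) and Oda (0.73).

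The gene dnc encodes a cAMP phosphodiesterase, which breaks down what rut makes. Its group means ran from 24.4 ± 8.67 CPM in naive w+hsp70- (n = 3) to 36.4 ± 2.97 in hsp70- at 5 h (n = 3), and no comparison called it. In naive hsp70- its 3 libraries had 10.3, 34.9 and 30.5 CPM, so replicate 1 was the lowest library of the set. In naive w+hsp70- they had 17.0, 22.3 and 34.0 CPM, and at 5 h they averaged 33.7 ± 2.66 (log2 change 0.47, SE 0.23, adjusted p = 0.548). That change was called without the count filter (adjusted p = 0.0135) and without w+hsp70- naive replicate 3 (0.78, adjusted p = 0.00987). The genes most like dnc over the libraries were Rbp6 (0.94), pros (0.92) and ps (0.91).

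The gene amn encodes a preproprotein of neuropeptides that act upstream of cAMP in memory. It had 0 counts in 3 libraries and at most 6, or 0.782 CPM, and it was not tested. At 24 h its libraries had 5, 3 and 2 counts in hsp70-1c (0.255 to 0.604 CPM) and 1 each in hsp70-4c (0.129 to 0.151). With so few reads no difference between these strains can be read from them.

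Protein kinase A was represented by its main catalytic subunit, Pka-C1, and the regulatory subunits Pka-R1 and Pka-R2, which hold the catalytic subunit inactive until cAMP binds. Pka-C1 had group means from 75.3 ± 18.5 CPM in naive w+hsp70- to 99.2 ± 4.19 in hsp70- at 5 h, and Pka-R2 from 76.6 ± 6.43 in naive hsp70-1c (n = 4) to 98.6 ± 4.27 in hsp70- at 5 h. Neither was called in any comparison. The 3 naive hsp70- libraries alone spanned more than the group means: Pka-C1 was at 42.0, 89.9 and 111.6 CPM there, and Pka-R2 at 50.3, 98.8 and 111.8. The widest naive strain difference of Pka-C1, w+hsp70- minus hsp70-4c, was -0.17 on the log2 scale (95% interval -0.68 to 0.33). Its 5 h change in w+hsp70- was 0.31 (SE 0.17, adjusted p = 0.582), called at 0.51 without w+hsp70- naive replicate 3 (adjusted p = 0.0438).

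Pka-R1 varied less and did not follow its partners. Naive hsp70-4c had 151.6, 148.1, 132.5 and 140.4 CPM and the same strain at 5 h had 121.2, 121.3 and 103.5, with no overlap (log2 change -0.30, SE 0.10, adjusted p = 0.0834 by edgeR). The changes at 5 h in hsp70-1c, hsp70- and w+hsp70- were -0.23 (SE 0.11, adjusted p = 0.303), -0.09 (SE 0.16, adjusted p = 0.95) and -0.19 (SE 0.09, adjusted p = 0.445). All 4 values were negative and none was called. In hsp70-4c at 24 h the change was -0.24 (SE 0.10, adjusted p = 0.254). The ratio of Pka-C1 to Pka-R1 CPM averaged 0.602 ± 0.0363 in naive hsp70-1c and 0.597 ± 0.0603 in naive hsp70-4c, with 4 libraries each. At 5 h the averages over 3 libraries were 0.745 ± 0.0855 and 0.75 ± 0.0553. The values of naive and 5 h libraries did not overlap in these strains. In hsp70-1c they almost touched, at 0.557 to 0.645 naive and 0.647 to 0.802 at 5 h. They overlapped in w+hsp70- (0.45 to 0.757 naive and 0.696 to 0.953 at 5 h), and the 24 h libraries overlapped the naive ones in hsp70-1c (0.484 to 0.895 at 24 h) and hsp70-4c (0.522 to 0.818). This ratio was not tested. In naive hsp70- it spread from 0.334 to 0.95. Within groups Pka-C1 moved with the balance of long and short genes described below (correlation 0.92) and Pka-R1 did not (-0.14).

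CrebB is the fly CREB gene tied to long-term memory, with isoforms that activate and isoforms that repress transcription. These counts sum the isoforms. In naive hsp70-4c its 4 libraries had 17.4, 15.3, 14.9 and 20.8 CPM and in naive w+hsp70- the 3 libraries had 22.3, 23.2 and 24.5, with no overlap. The log2 difference was 0.46 (SE 0.13, adjusted p = 0.0305 by edgeR), and the call was kept in 8 of 14 fits that left out a naive library. It was lost without any w+hsp70- naive library (adjusted p 0.0586, 0.0847 and 0.119 without replicates 1, 2 and 3) and without hsp70-4c naive replicates 1, 2 or 3 (0.0619, 0.0973 and 0.102). Against naive hsp70-1c, at 14.5, 19.4, 19.2 and 18.3 CPM, the difference of w+hsp70- was 0.38 (SE 0.13, adjusted p = 0.169).

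After training, CrebB in hsp70-1c was at 17.7, 25.9 and 20.2 CPM at 5 h and at 22.9, 36.5 and 23.8 at 24 h, where 1 library stood above the rest of the set. The 24 h change in hsp70-1c was 0.63 (SE 0.19, unadjusted p = 0.00572, adjusted p = 0.336), the largest log2 value of CrebB in the within-strain comparisons. In hsp70-4c the change was 0.35 at 5 h (SE 0.12, adjusted p = 0.103, or 0.46 with adjusted p = 0.0347 without naive replicate 4, and 0.46 with adjusted p = 0.0353 with the replicate number as a block) and 0.37 at 24 h (SE 0.12, adjusted p = 0.161). In hsp70- it was 0.35 at 5 h (SE 0.13, adjusted p = 0.63) with no overlap between libraries, and in w+hsp70- it was -0.04 (SE 0.13). The overlapping gene por was at 1.04 to 1.93 CPM in group means and was not called in the test over all groups (adjusted p = 0.548). The genes most like CrebB were CkIalpha (0.65), Spf30 (0.65) and disco (0.63), the lowest such values of the 9 genes tested.

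CrebA encodes a relative of CREB best known for driving genes of the secretory pathway. Its group means were lowest in naive w+hsp70-, where the libraries had 7.37, 6.71 and 9.75 CPM, and highest in w+hsp70- at 5 h, where they had 11.1, 10.4 and 11.3. These groups did not overlap (log2 change 0.46, SE 0.18, unadjusted p = 0.0199, adjusted p = 0.29). No comparison called it.

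The gene orb2 encodes a cytoplasmic polyadenylation element-binding protein, a prion-like regulator of synaptic translation that long-term memory in flies requires. It was called at 5 h between hsp70-, with 60.8, 70.2 and 71.5 CPM, and hsp70-4c, with 46.5, 44.4 and 40.3 CPM. The groups were well apart, with a log2 difference of 0.63 (SE 0.12, adjusted p = 0.00239 by edgeR), and the call held in 12 of 12 fits that left out a library. At 5 h hsp70-1c lay between them at 48.5, 59.9 and 51.1 CPM, and w+hsp70-, at 49.1, 64.8 and 54.7, lay above hsp70-4c and overlapped hsp70-. In naive flies the same pair of strains overlapped, at 53.6, 58.9 and 63.2 CPM in hsp70- and 51.7, 61.5, 46.7 and 55.8 in hsp70-4c (log2 difference 0.13, SE 0.11, adjusted p = 0.489). Within hsp70-4c the 5 h change was -0.29 (SE 0.10, adjusted p = 0.11), and within hsp70- it was 0.22 (SE 0.12, adjusted p = 0.853). The difference of these changes, hsp70- minus hsp70-4c, was 0.52 (SE 0.16, adjusted p = 0.292). For w+hsp70- against hsp70-4c at 5 h the value was 0.36 (SE 0.12, adjusted p = 0.0772), called at 0.45 without w+hsp70- 5 h replicate 1 (adjusted p = 0.0479). CG43783, which shares exon bases with orb2, had a difference of 0.35 in the called comparison (SE 0.14, adjusted p = 0.103). With the balance of long and short genes described below as a covariate, the orb2 difference was 0.24 (adjusted p = 0.775).

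Nf1, the fly neurofibromin gene, encodes a GTPase-activating protein of Ras that flies also need for normal cAMP signalling. Its group means lay between 31.6 ± 5.58 CPM in hsp70-4c at 24 h and 42.5 ± 1.33 in hsp70- at 5 h (n = 3 each), and no comparison called it. At 5 h hsp70- had 41.1, 42.7 and 43.8 CPM and hsp70-4c 35.4, 33.4 and 31.5, with no overlap (log2 difference 0.35, SE 0.12, adjusted p = 0.0662, or 0.0274 without hsp70-1c 5 h replicate 3). In naive hsp70- it was at 22.0, 41.0 and 52.8 CPM. Without replicate 1 of that group Nf1 was called against naive hsp70-1c (0.47, adjusted p = 0.0278) and naive hsp70-4c (0.45, adjusted p = 0.0233) and in the test over all groups (adjusted p = 0.0397).

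**Figure D2:**
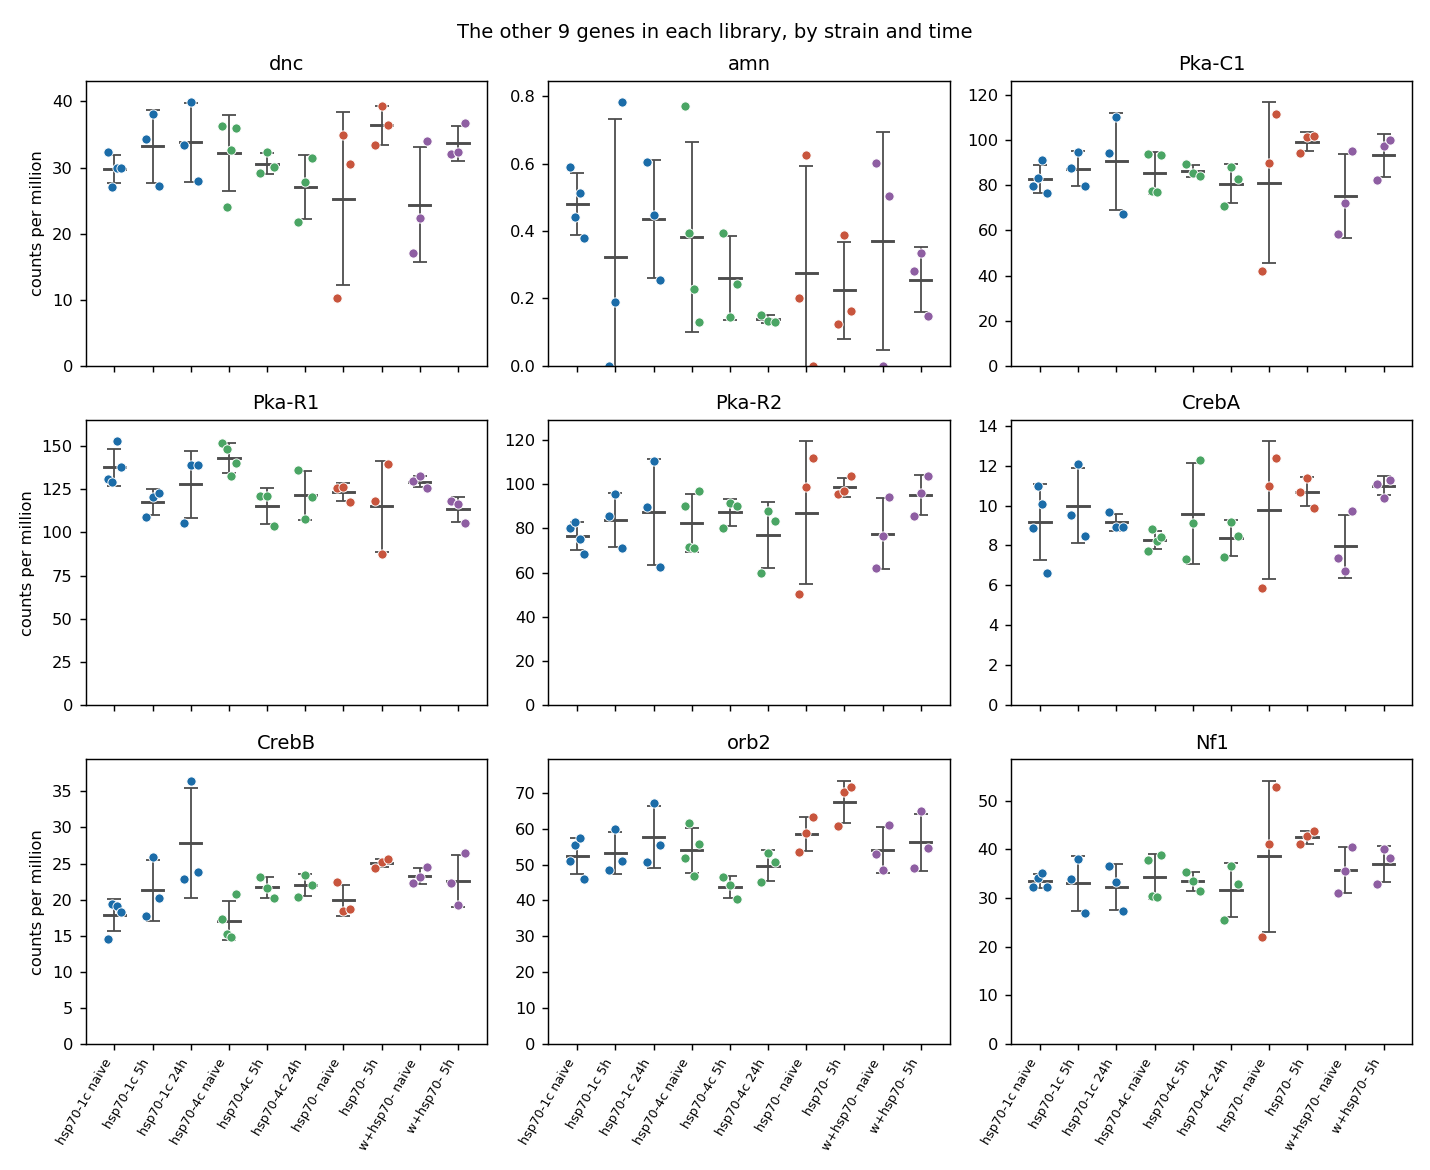
Levels of the other 9 genes in CPM (vertical axes, from 0) in each library (points, coloured by strain) by strain and time (horizontal axes), with the mean (bar) and SD (whiskers) of each group. In naive hsp70- the lowest point of dnc (10.3), Pka-C1 (42.0), Pka-R2 (50.3), CrebA (5.86) and Nf1 (22.0) is the same library, replicate 1.

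Counted by comparison, the calls were few. Among naive strain pairs 5 of 54 tests were called, all with the higher level in hsp70- or w+hsp70-. For hsp70- against hsp70-1c it was 1 of 9 genes, where 7.53% of all genes were called and 1.85% were called higher. For w+hsp70- against hsp70-1c it was 1 of 9 (3.15% of all genes, 0.478% higher), for hsp70- against hsp70-4c 1 of 9 (15.9%, 6.9% higher) and for w+hsp70- against hsp70-4c 2 of 9 (9.91%, 4.56% higher). It was 0 of 9 for hsp70-4c against hsp70-1c, where 10.1% of all genes were called, and for w+hsp70- against hsp70- (0.287%). In neither pair did any of the 9 genes have an unadjusted p under 0.05 (20.2 and 7.09% of all genes), and the DESeq2 Wald test called none. The median log2 difference of the 9 genes was 0.15 for hsp70- against hsp70-1c and 0.13 against hsp70-4c. It was 0.0 for w+hsp70- against hsp70-1c, -0.05 against hsp70-4c and -0.11 against hsp70-, and 0.02 for hsp70-4c against hsp70-1c. For all genes it was within 0.01 of 0 in each.

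At 5 h 1 of 54 strain tests was called, that of orb2 for hsp70- against hsp70-4c, where 14.8% of all genes were called and 6.31% called higher. The other 5 pairs had 0 of 9, with 5.61% of all genes called for hsp70-4c against hsp70-1c, 4.37% for hsp70- against hsp70-1c, 0.466% for w+hsp70- against hsp70-1c, 9.3% for w+hsp70- against hsp70-4c and 0.266% for w+hsp70- against hsp70-. Of the 54 tests 7 had an unadjusted p under 0.05. Over all genes that share ran from 7.17% (w+hsp70- against hsp70-) to 28.6% (hsp70- against hsp70-4c). At 24 h, hsp70-4c against hsp70-1c gave 0 of 9 against 4.2% of all genes, with 0 at an unadjusted p under 0.05 (14.2% of all genes). All 9 values of that comparison were negative, with a median of -0.17, beside 0.0 for all genes. The 9 genes are long. The balance of long and short genes described below was -0.29 to -0.01 in hsp70-4c at 24 h (mean -0.147) and -0.21 to 0.06 in hsp70-1c (mean -0.05). Its part in these values was not tested.

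Training gave 1 call in 36 tests at 5 h, rut in hsp70-1c, where 3.51% of all genes were called and 1.41% called higher. It gave 0 of 9 in hsp70-4c (5.48% of all genes), in hsp70- (0.0305%) and in w+hsp70- (1.93%), and 10 of the 36 tests had an unadjusted p under 0.05. At 24 h it gave 0 of 9 in hsp70-1c (0.0% of all genes) and 0 of 9 in hsp70-4c (0.923%), with 4 of 18 under 0.05 unadjusted. The planned differences of 5 h responses gave 0 of 18, with 0 under 0.05 unadjusted (8.76 and 2.66% of all genes), beside 0.0189% of all genes called for hsp70-4c against hsp70-1c and 0.0% for w+hsp70- against hsp70-. Those of the other strain pairs gave 0 of 36, with 6 under 0.05 unadjusted (6.09 to 10.8% of all genes), beside 0.134% of all genes called for w+hsp70- against hsp70-4c and 0.0% for the other 3 contrasts. The DESeq2 Wald test likewise called 0 in the 24 h comparisons and in the differences of responses, and 0 of 36 at 5 h.

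**Figure D3:**
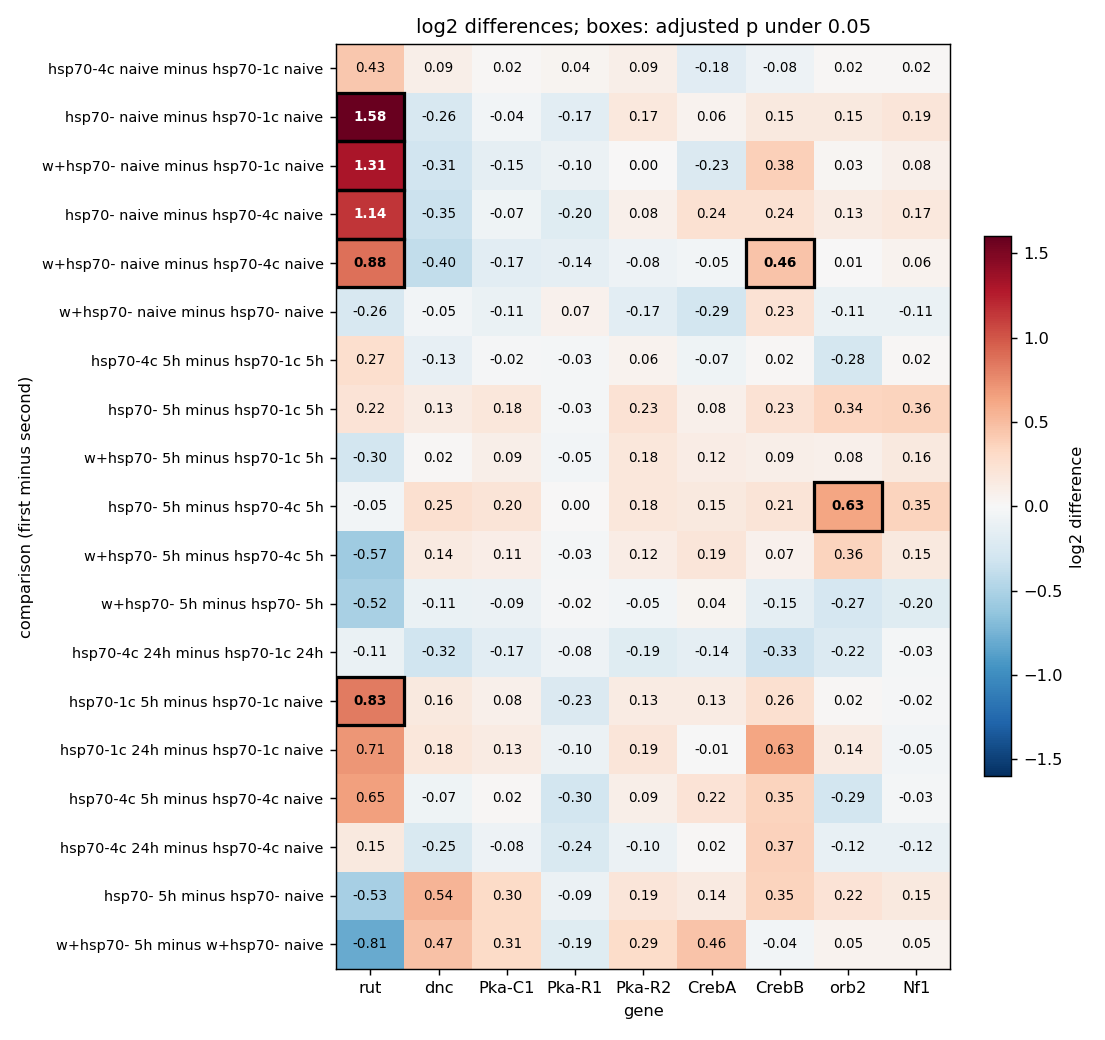
Colours and printed values give the log2 difference of each tested gene (columns) in each comparison of 2 groups (rows), first group minus second, and boxes mark an adjusted p under 0.05 by edgeR. Of the 7 boxed values 5 belong to rut, from 0.83 to 1.58, and 1 each to CrebB (0.46) and orb2 (0.63).

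Apart from the groups, 4 of the genes varied together from library to library. Deviations of log2(CPM + 1) from the group mean, over 32 libraries in 10 groups, correlated at 0.94 for Pka-C1 with Pka-R2, 0.93 for Pka-C1 with Nf1, 0.90 for dnc with Pka-C1 and 0.84 for dnc with Nf1. Leaving out hsp70- naive replicate 1, these values were 0.90, 0.85, 0.76 and 0.64 over 31 libraries. Pka-R1 was apart from these 4, at -0.14 with Pka-C1 and -0.20 with Pka-R2. The value of rut with Pka-C1 was 0.34, or 0.19 without hsp70- naive replicate 1. Its highest value with another member was 0.47, with orb2, or 0.44 without that library. With 10 to 43 counts of rut per library, counting noise alone lowers its correlations, so low values do not show that rut varied apart. These correlations are descriptions of libraries that share depth and preparation.

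The same deviations moved with a measure of the library as a whole, the balance of long and short genes. It was the median log2 deviation of 2131 genes with at least 3830.4 exon bases (the longest 20%) minus that of 2125 genes with at most 986, and it ranged from -0.29 to 0.36. The 9 tested genes all belong to the long side. The correlation with this balance was 0.93 for Pka-R2 and for Nf1, 0.92 for Pka-C1, 0.78 for dnc, 0.68 for CrebA and 0.62 for orb2, and 0.36 for rut, 0.21 for CrebB and -0.14 for Pka-R1. Without hsp70- naive replicate 1 it was 0.88, 0.88, 0.86, 0.58, 0.47, 0.64, 0.24, 0.47 and -0.13 in the same order. The strains differed in this balance, which was 0.237 ± 0.1 in hsp70- at 5 h (n = 3) and -0.07 ± 0.0436 in hsp70-4c at 5 h (n = 3), without overlap. That is the pair in which orb2 was called. Other pairs at 5 h did not overlap in this balance either, and none of the 9 genes was called in them. There hsp70- (0.14 to 0.34) lay above hsp70-1c (-0.13 to 0.08) and w+hsp70- (-0.01 to 0.12). In turn w+hsp70- lay above hsp70-4c (-0.1 to -0.02).

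**Figure D4:**
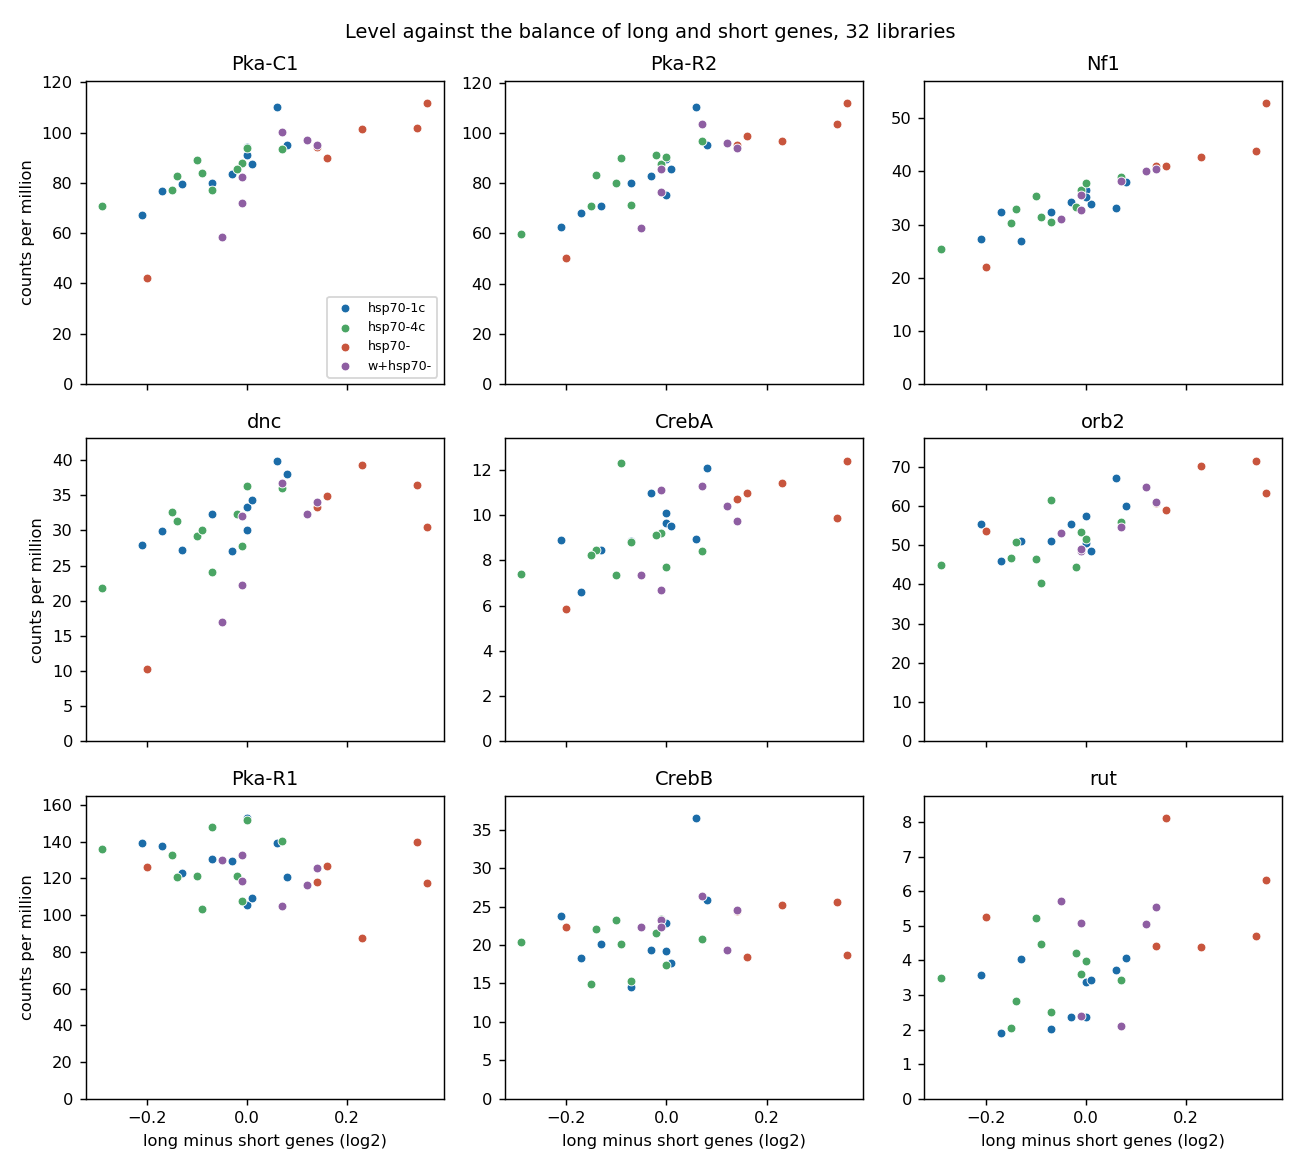
Level of each tested gene in CPM (vertical axes, from 0) against the balance of long and short genes on a log2 scale (horizontal axes), 1 point per library and 32 in each panel, coloured by strain. Pka-C1, Pka-R2 and Nf1 climb along the axis, with correlations of 0.92 to 0.93 within groups, while Pka-R1 (-0.14), CrebB (0.21) and rut (0.36) follow it less.

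Neuronal markers moved with the same genes. The summed level of 7 neuronal markers (nSyb, Syt1, brp, VGlut, Gad1, onecut and elav) was 970 CPM in hsp70- naive replicate 1 and 1163 to 1687 in the other 31 libraries. Its correlation within groups was 0.89 with Pka-C1, 0.88 with Nf1, 0.87 with Pka-R2, 0.83 with dnc, 0.33 with rut and 0.06 with Pka-R1. Without hsp70- naive replicate 1 the value for rut was 0.18. In naive flies the sum was 970 to 1574 CPM in hsp70-, 1206 to 1485 in w+hsp70-, 1333 to 1471 in hsp70-1c and 1248 to 1553 in hsp70-4c, so it overlapped between the strains in which rut differed. Summed fat body markers overlapped between naive w+hsp70- and hsp70-4c, but not in the other naive pairs in which rut was called. Their sum over 8 genes in naive flies was 4078 to 5438 CPM in hsp70-1c, 2077 to 2801 in hsp70-4c, 1298 to 1884 in hsp70- and 1659 to 2115 in w+hsp70-, which is nearly the reverse of the order of rut. Of 7 fat body markers tested, 3 were called lower in naive hsp70- than in hsp70-1c, Lsp2 (-4.86, adjusted p = 0.00278), bmm (-0.90, adjusted p = 0.00135) and apolpp (-0.42, adjusted p = 0.0298), and 0 higher. Of all genes 7.53% were called in that pair. The 7 had 2 called lower for w+hsp70- against hsp70-1c (3.15% of all genes called), 2 for hsp70- against hsp70-4c (15.9%) and 0 for w+hsp70- against hsp70-4c (9.91%). Lsp2 averaged 2734 CPM in naive hsp70-1c and 94.6 in naive hsp70-, so 1 gene made up much of the difference in the sum. Within groups the fat body sum correlated at 0.07 with rut over the 32 libraries, a value that the low counts of rut also limit. The yolk protein genes Yp1 and Yp2 had medians of 1.83 and 0.976 CPM, and Fbp1 was at 0 in 17 libraries. The summed level of 9 mushroom body markers was 183 to 231 CPM in naive hsp70-, 182 to 219 in naive w+hsp70-, 187 to 228 in naive hsp70-1c and 194 to 213 in naive hsp70-4c. At 5 h it was 214 to 238 in hsp70-, 208 to 237 in w+hsp70-, 198 to 228 in hsp70-1c and 201 to 213 in hsp70-4c. For hsp70- against hsp70-4c at 5 h, 0 of 9 mushroom body markers were called (14.8% of all genes). The mushroom body sum correlated at 0.73 with orb2 within groups. Photoreceptor markers differed between naive strains, with a sum of 21682 to 25820 CPM in hsp70-4c and 30699 to 33284 in hsp70-1c. Most of that sum was ninaE, at means of 18550 and 25993 CPM. Called markers went both ways. Of 9 such markers 6 were called between these strains, 2 higher and 4 lower in hsp70-4c (10.1% of all genes). Against naive hsp70-4c, 7 were called in w+hsp70-, 5 higher and 2 lower (9.91%), and 4 in hsp70-, 3 higher and 1 lower (15.9%). Against naive hsp70-1c, 0 were called in w+hsp70- (3.15%) and 1 in hsp70- (7.53%). The part of cell makeup in these results was not tested.

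With the balance as a covariate, an alternative added after seeing the data, the rut calls in naive flies held at 1.42, 1.24, 1.01 and 0.83 (adjusted p 0.00239, 0.00471, 0.00631 and 0.0163, in the order given above), and the CrebB call held at 0.46 (adjusted p = 0.0235). That fit added calls for lower Pka-C1 in naive hsp70- and w+hsp70-, at -0.56 and -0.39 against hsp70-1c (adjusted p = 0.00203 and 0.016) and -0.51 and -0.34 against hsp70-4c (0.000982 and 0.0121). The values without the covariate were -0.04, -0.15, -0.07 and -0.17. It also called lower Pka-R2 in naive hsp70- against hsp70-4c (-0.28, adjusted p = 0.0435), where the value without it was 0.08. In hsp70-4c at 5 h it called Pka-R1 lower (-0.32, adjusted p = 0.0432) and CrebB higher (0.40, adjusted p = 0.0272), and CrebB was called there at 24 h (0.50, adjusted p = 0.0424). The rise of rut in hsp70-1c at 5 h was 0.81 with adjusted p = 0.0593.

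The genes most like the co-varying members, by Pearson correlation over 32 libraries, were bol (0.95), scrt (0.94) and Mid1 (0.94) for Pka-C1, bol (0.96), bru3 (0.93) and Mid1 (0.93) for Pka-R2, and kmr (0.92), CG16779 (0.90) and AGO1 (0.90) for Nf1. Those of orb2 were Alk (0.82), Helz (0.77) and alpha-Spec (0.77), those of CrebA were ths (0.79), Pdp1 (0.76) and msi (0.76), and those of Pka-R1 were gfzf (0.83), fru (0.81) and CG5639 (0.81). Alk, a receptor tyrosine kinase, and AGO1, an Argonaute protein of the microRNA pathway, also belong to the wider lists below.

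Other genes of the pathway were read from wider lists. Of 36 further genes found by symbol on a broad cAMP list (cyclases, phosphodiesterases, G proteins and receptors), 30 were tested. Some of them, among them Galphaq, Pde6 and Pde9, are not specific to cAMP. Over the 10 groups 7 of the 30 were called, or 23.3%, against 34.6% of all genes. Octbeta2R, an octopamine receptor that raises cAMP, was called in 4 naive strain pairs. Its log2 difference was 0.72 for hsp70- against hsp70-1c (SE 0.09, adjusted p = 0.000101 by edgeR), 0.45 for w+hsp70- against hsp70-1c (SE 0.09, adjusted p = 0.00792), 0.40 for hsp70- against hsp70-4c (SE 0.09, adjusted p = 0.00476) and 0.32 for hsp70-4c against hsp70-1c (SE 0.08, adjusted p = 0.0173).

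For naive hsp70- against hsp70-4c, 3 of the 30 genes of this list were called higher and 1 lower, or 13.3%, below the 15.9% of all genes. They were Octbeta2R, the G protein subunit gene Galphaq (0.47, adjusted p = 0.00482) and the phosphodiesterase Pde11 (0.33, adjusted p = 0.0366), and, lower, Pde9 (-1.23, adjusted p = 0.00634). At 5 h the same pair of strains had 7 of the 30 called higher and 0 lower, or 23.3% against 14.8% of all genes called and 6.31% called higher, with a list median of 0.19 against 0.01 for all genes. The balance of long and short genes did not overlap between these strains at 5 h, nor between several other pairs of strains. Its part in these counts was not tested. Among them were Galphao, an inhibitory G protein subunit gene (0.76, adjusted p = 0.00132), and the phosphodiesterases Pde6 (0.38, adjusted p = 0.0242) and Pde8 (0.61, adjusted p = 0.0253). Against hsp70-1c, Galphao was also called lower in hsp70-4c at 5 h (-0.56, adjusted p = 0.0168) and at 24 h (-0.88, adjusted p = 0.025). Galphaq was likewise called lower in naive hsp70-4c than in naive hsp70-1c (-0.35, adjusted p = 0.0275). It was called higher in naive w+hsp70- than in naive hsp70-4c (0.48, adjusted p = 0.00587). After training, 1 of the 30 was called at 5 h in hsp70-1c, Pka-C3 (0.46, adjusted p = 0.0433), or 3.33% against 3.51% of all genes, and 0 in the other 3 strains.

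Of 9 tested CREB co-factors and relatives 1 was called over the 10 groups, crc, the fly ATF4, or 11.1% against 34.6% of all genes. It was higher than in naive hsp70-4c in naive hsp70- (0.30, adjusted p = 0.0053) and naive w+hsp70- (0.31, adjusted p = 0.00655). Of 14 RNA-binding and local translation genes 0 were called over the 10 groups, also below that share. At 5 h in hsp70- against hsp70-4c, the pair in which orb2 was called, 4 of these 14 were called higher and 0 lower. That is 28.6%, beside 14.8% of all genes called and 6.31% called higher. The 4 were AGO1 (0.50, adjusted p = 0.00299), pum (0.45, adjusted p = 0.017), Syp (0.55, adjusted p = 0.0266) and orb, a relative of orb2 (0.57, adjusted p = 0.0404). The balance of long and short genes did not overlap between these strains at 5 h, and its part in these calls was not tested.

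Of 13 Ras and MAP kinase genes, the branch on which Nf1 acts, 5 were called over the 10 groups, or 38.5%, near the 34.6% of all genes. The Ras pathway inhibitor sty was called in naive hsp70- against hsp70-1c (0.64, adjusted p = 0.0191) and against hsp70-4c (0.77, adjusted p = 0.00287), and it rose at 5 h in hsp70-4c (0.41, adjusted p = 0.0405) and w+hsp70- (0.49, adjusted p = 0.0192). jeb, the ligand of Alk, rose at 5 h in the same strains (0.62, adjusted p = 0.0264, and 0.93, adjusted p = 0.0152). Of 33 other memory genes 7 were called over the 10 groups, or 21.2%, below the 34.6% of all genes. Among them was Arc1, the fly relative of the activity-regulated gene Arc. For hsp70-4c minus hsp70-1c it was lower in naive flies (-1.37, SE 0.15, adjusted p = 7.71e-06) and likewise at 5 h (-1.02, adjusted p = 0.000669) and 24 h (-1.19, adjusted p = 0.0267).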

How the data were processed

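The authors' deposited files hold raw counts, whole numbers of reads per gene, 1 file per library. Per the submitters' processing notes, reads were trimmed with Trimmomatic, aligned with STAR 2.5.0a to dm6 and counted with featureCounts 1.5.0-p1; the strand setting and annotation release are not given in the sources used here. Per the labels' protocols, libraries were directional and read as 75-bp single ends.

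Groups came from the sample labels. Tests used edgeR 4.0.16 under R 4.3.3 (TMM scaling, filterByExpr, robust quasi-likelihood F tests, 2-sided, Benjamini-Hochberg over all genes tested, called under 0.05): naive, 5 h and 24 h strain pairs, each strain's times, interactions, and all 32 libraries for any difference. P-values measure spread between pools of flies. CPM use TMM sizes over 32 libraries; exon lengths and positions come from the Ensembl BDGP6 annotation. Alternatives were DESeq2 1.42.0 size factors and Wald (for all groups, likelihood-ratio) tests, no filter, 1 fit of all libraries, a replicate block and leaving out each library; the gene-length balance (longest against shortest 20% of genes) and 4 interactions were added after seeing the data. The method was tested on simulated counts with 200 changed genes and the same dispersion for every gene, a simpler setting than these libraries. Named genes are the 10 members, the 3 genes most correlated with each, up to 4 called genes per wider list and comparison, neighbours of rut and exon-overlapping genes. The members and lists were chosen with earlier results of these data known. Promoter and protein sequences were not analysed here.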

Additional observations from a re-analysis of the deposited data

How the results depend on the processing

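Counts of called genes are given for 9 genes per comparison. The DESeq2 size factors moved no call, and the fit of all 32 libraries left 4 naive calls of 5, losing CrebB in naive w+hsp70- against hsp70-4c (0.45, adjusted p = 0.0522). With the gene-length balance as a covariate, calls were 10 among naive strain pairs (5 without it), 0 among 5 h pairs (1), 2 for 5 h against naive (1) and 1 for 24 h against naive (0), and Pka-R2 in naive hsp70- against hsp70-4c turned from 0.08 to -0.28; the cause was not tested. The DESeq2 Wald test called 0 for 5 h against naive. Leaving out 1 library at a time, calls ranged from 3 to 7 among naive pairs, 1 to 2 among 5 h pairs, 0 to 3 for 5 h against naive, 0 to 0 for 24 h against naive, 2 to 4 over all groups, and 0 to 2 for the interactions added after seeing the data. The test over all groups called orb2 in 28 of 32 such fits. Same-numbered libraries correlated above 0.1 in 4 of 19 pairs in naive flies, 6 of 18 at 5 h, 0 of 3 at 24 h, 3 of 9 within hsp70-1c, 4 of 9 within hsp70-4c (highest 0.443), 1 of 3 within hsp70- and 0 of 3 within w+hsp70-, so the numbers were not taken to pair libraries. The replicate block gave 5, 1, 0, 1 and 0 calls for naive pairs, 5 h pairs, the 24 h pair, 5 h and 24 h against naive, 0 for both kinds of interaction and 3 over all groups; it lost rut in hsp70-1c at 5 h (0.78, adjusted p = 0.112) and called CrebB in hsp70-4c at 5 h (0.46, adjusted p = 0.0353). Without the count filter rut in hsp70-1c at 5 h had an adjusted p of 0.0689. By Spearman correlation 11 of the 27 most similar genes were the same. Without TMM factors 5 of 100 group levels moved by more than 1 SD, all in hsp70- at 5 h: rut 4.75, Pka-C1 104.5, Pka-R2 103.9, CrebB 26.4 and Nf1 44.8 CPM. Depth limits rut and amn most.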
